A study of Mus musculus with 57 samples.

Results

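Control cells from the brains of wild-type mice were compared between late and early ages. The late class holds the 4 libraries of 90 days and the 4 of 105 days, and the early class the 4 of 30 days and the 2 of 60 days. These 14 of the 57 libraries of the series were chosen by cell type, genotype and age in the labels. RNA was sequenced with a full-length SMART-Seq protocol. The series also holds corticospinal neurons (CSN), the cortical cells whose axons reach the spinal cord, and mice with Sod1G86R, a mutant superoxide dismutase that causes motor neuron disease. Its title is about variants of Creb3, a transcription factor, and amyotrophic lateral sclerosis. The mice used here were wild type, and the labels name no treatment. Ages are plain numbers in the labels, read here as days, and an animal is known only by its number in the library name. Nothing in the labels says how the control cells were chosen, how many cells a library holds or whether animals shared a litter or day, so p-values measure only the spread between these libraries. Levels are normalised reads, which are reads divided by a scaling factor of the library.

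Myelin, the lipid-rich sheath around axons, is made by oligodendrocytes, which arise from dividing precursors. Myelin formation in the mouse cortex begins after birth and continues into adulthood, and it draws heavily on cholesterol made within the brain. Interferon-stimulated genes and the antigen presentation genes they overlap with are held at a low level in the healthy brain and are found in glia and vessels as well as in neurons.

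The label was checked against marker genes. Markers of upper-layer and callosal neurons took 0.252% to 0.590% of the normalised reads in the 14 libraries, against 0.190% to 0.294% in wild-type CSN. Deep-layer and corticospinal markers took 0.0363% to 0.0645%, against 0.228% to 0.349% in wild-type CSN. Markers of glia, vessels and GABAergic neurons were present in every library of control cells, so the RNA is not of 1 cell type. Whether all of it came from whole cells cannot be told from these levels. In such mixtures fewer cells of a type and less RNA per cell cannot be told apart. A library of 90 days, replicate 9, held choroid plexus RNA: Ttr, the choroid plexus transport protein, stood at 116500 there and at no more than 39.3 in the other libraries. Some results are also given without that library below. Ddx3y, on the Y chromosome, lay between 2643 and 5992 and Xist, the female X-inactivation RNA, at no more than 51.2 in all of these libraries. Recovered reads ranged from 32.4 to 64.2 M (1 M is 1e6 reads) in late and from 35.04 to 46.4 M in early libraries.

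More genes were lower than higher in the late class. Oligodendrocyte and myelin genes, vascular markers, and genes of cholesterol synthesis, of the interferon response and of the lysosome were lower at late ages, while some mitochondrial, ribosomal protein and neuronal genes were higher. Of 19191 genes tested, 236 rose (1.23%) and 1196 fell (6.23%), together 1432 genes or 7.46%, with limma and a Benjamini-Hochberg adjusted p under 0.05. A change over 2-fold was seen in 1047 of the 1196 falls and in 134 of the 236 rises. The late and the early libraries did not overlap in 381 genes (1.99%), 322 lower (1.68%) and 59 higher (0.307%). The median log2 fold change of all genes tested was -0.03.

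The count of genes depends strongly on what else is in the model and on which libraries are used. The share of mitochondrially encoded reads was 0.991% to 2.55% in late and 0.811% to 1.12% in early libraries (exact permutation test, two-sided, p = 0.00799, adjusted p = 0.028 over 14 library measures). With that share as a covariate 3 genes passed, and 6 passed with a score of glial markers. The score is the mean log2 level of the oligodendrocyte and myelin, astrocyte and microglia lists. For members of these lists the fit with the score is therefore no independent test. With the 60-day libraries left out, 197 genes passed, 8 of them higher and 189 lower, and without these and the 90-day library with choroid plexus RNA 134 passed. Leaving out 1 library changed the count by over 1.5 times for both 60-day libraries (528 without replicate 1, 595 without replicate 2), for 90-day replicate 3 (895), and for 105-day replicates 11 (947), 12 (2414) and 13 (836). The balance of rises and falls depends on the scaling. Quantile normalisation gave 559 rises and 872 falls and put the median of all genes at 0.09, and DESeq2 on recovered reads gave 1083 and 1386. Library numbers, which the labels give, also differed between the classes, with overlapping ranges (exact permutation adjusted p = 0.0466 over 14 library measures). With the library number as a covariate 697 genes passed. The summed level of oligodendrocyte genes, given next, does not overlap between the classes, so its part in the other changes cannot be told apart from age, and with it as a covariate 0 genes passed.

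All 16 oligodendrocyte and myelin genes fell (median log2 fold change -2.35). In 11 of them the late and early libraries did not overlap. Together these genes took 2.99% to 5.90% of the normalised reads in early libraries (median 4.23%) and 0.403% to 1.75% in late ones (median 0.844%). Every early library was above every late library. The summed level differed between the classes with an adjusted p of 0.00932 over 14 library measures (exact permutation test, two-sided, 8 against 6 libraries).

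**Figure D1:**
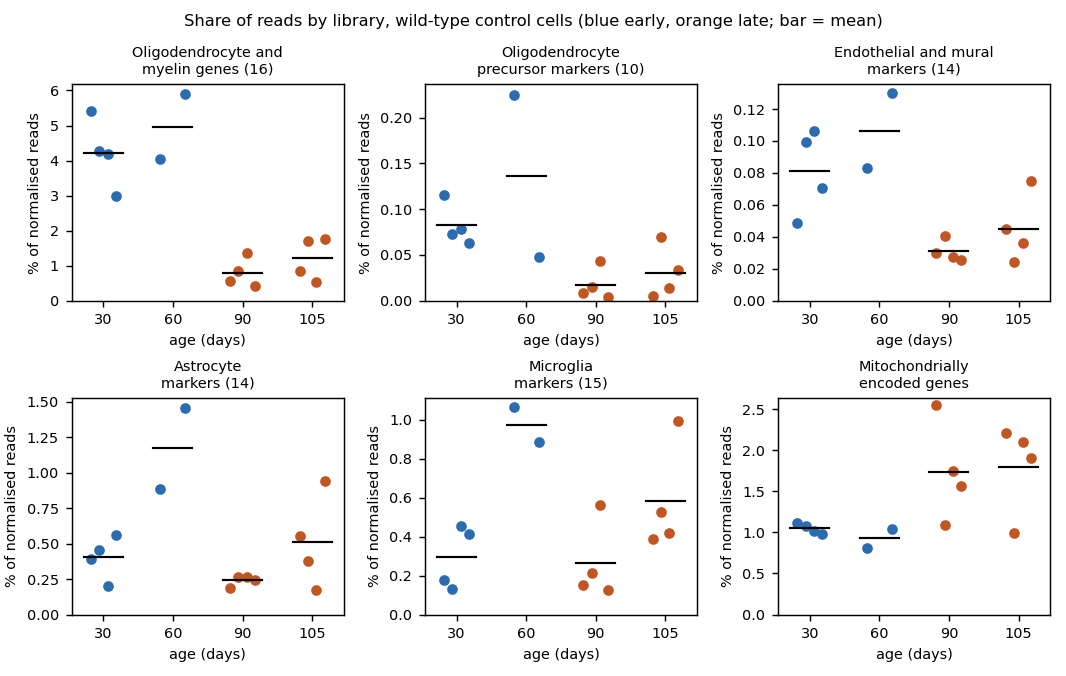
Share of normalised reads taken by 5 marker lists and by mitochondrially encoded genes, with age in days on the x axis, 1 point per library of wild-type control cells (blue early, orange late) and a bar at the mean of each age. The oligodendrocyte share of every early library, 2.99% or more, lies above that of every late library, 1.75% or less, whereas the astrocyte and microglia shares of the classes overlap.

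Mal (ENSMUSG00000027375, GRCm38 chromosome 2, 127633226 to 127656695, minus strand) encodes a lipid raft protein of myelin. Its normalised reads were 78400 at the lowest, 87600 at the median and 104600 at the highest in early libraries, and 7027, 14560 and 30690 in late ones. The classes did not overlap, and the log2 fold change was -2.60 (SE 0.31, limma adjusted p = 0.00028). Mog, a protein of the outermost myelin layer, fell by 2.61 on the log2 scale, and Ugt8a, which makes the myelin lipid galactosylceramide, by 2.60 (limma adjusted p = 0.00047 and 0.0005). For both of these genes too, all late libraries were below all early ones. Several of the largest falls in the whole comparison were likewise genes known from oligodendrocytes. Cnp, a myelin-associated phosphodiesterase, went from a median of 120700 to 5888 (log2 fold change -3.94, SE 0.60, limma adjusted p = 0.0009), without overlap. Cnp shares 8912 bases with Dnajc7 on the other strand, which stood at 6219 early and 4016 late on average, and the kit does not mark strand. Mag, an adhesion molecule facing the axon, fell by 3.49 on the log2 scale, and the change in Fa2h, which hydroxylates myelin fatty acids, was -3.50, both without overlap. Gsn, an actin-severing protein, was at 11910 to 39230 early and at 487.3 to 6922 late (log2 fold change -3.74, limma adjusted p = 0.00033). Neither class of Gsn libraries reached into the other. Without the 60-day libraries 12 of the 16 list members still passed, and 9 did so when 90-day replicate 9 was left out as well. The share of mitochondrially encoded reads as a covariate left 0 of 16 past the threshold (median -1.71), and the library number 12 of 16.

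Markers of oligodendrocyte precursors lay lower as well, with falls in 6 of 10 and a median of -1.96. Their summed level differed between the classes (exact permutation adjusted p = 0.00932 over 14 library measures). Neu4, a sialidase, had a median of 3885 early and 248.8 late (log2 fold change -3.69, SE 0.79, limma adjusted p = 0.0089), and Olig1, a transcription factor of the lineage, fell by 3.19 on the log2 scale. Both overlapped between the classes. In Gpr17, a receptor of committed precursors, the change was -3.15, but it shares 6640 bases with Lims2 on the other strand, which stood at 6363 early and 1510 late. Without the 60-day libraries 1 of the 10 passed (median -1.87), and with edgeR 1 (median -1.59).

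Endothelial and mural cell markers fell in 8 of 14 (median -1.28), and their summed level was 17630 to 52290 early and 8609 to 24530 late (exact permutation adjusted p = 0.00932 over 14 library measures). Cldn5, the main claudin of the blood-brain barrier, went from 1243 at the lowest, 3215 at the median and 4998 at the highest in early libraries to 49.8, 450.7 and 955.8 in late ones (log2 fold change -2.77, SE 0.45, limma adjusted p = 0.0014). The classes did not overlap, nor did they for Pecam1, an endothelial adhesion molecule (-1.92), or Slco1a4, an organic anion transporter of brain endothelium (-1.93). Without the 60-day libraries 3 of the 14 passed, and the median was -1.18. Astrocyte markers had a median of -1.01 with 2 of 14 falls, Gfap (-2.76) and Acsbg1 (-2.16), and neither passed without the 60-day libraries. Each lost its call in 10 of the 14 fits without 1 library. No microglia marker of 15 passed (median -0.47). Their summed levels did not pass either (exact permutation adjusted p = 0.212 for astrocytes and 0.491 for microglia), and both were highest in libraries of 60 days.

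Genes of cholesterol synthesis fell in 10 of 20 (median -1.18), and in 5 of these genes the classes did not overlap. The list of 20 also holds genes that are not enzymes of synthesis, among them Insig1, which fell, and Srebf2 and Cyp46a1, which did not pass. Sqle (squalene epoxidase; ENSMUSG00000022351, chromosome 15, 59315077 to 59331192, plus strand) catalyses the first oxygenation of the sterol pathway. It stood at 4877 to 10940 early (median 7085) and 1082 to 4409 late (median 1935), with every late library below every early one (log2 fold change -1.77, SE 0.28, limma adjusted p = 0.0011). A further 3 enzymes moved the same way without overlap: Hmgcs1, which makes the precursor of mevalonate (-1.32), Cyp51, which removes a methyl group of lanosterol (-1.76), and Sc5d, a late desaturase (-1.48). Srebf2 and Insig1 were picked out after their values were seen. Insig1, which holds back activation of the sterol-responsive transcription factors, fell by 2.14 on the log2 scale (limma adjusted p = 0.00436). Srebf2, which encodes the sterol-responsive factor itself, was at -0.21 and did not pass (limma adjusted p = 0.621). None of the 20 passed with the glial marker score or with mitochondrial reads in the model (medians -0.73 and -0.62), and 5 passed without the 60-day libraries (median -1.07).

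The promoter of Hmgcs1 is shown because it was the one of 14 list members with a RefSeq promoter (GRCm38.p6) that held the sterol regulatory letters TCACNCCAC, searched on both strands in the 250 bases before the annotated start. Among all 32851 promoters listed there 1.05% hold these letters. That share is per promoter, whereas a list member counted if any of its promoters held them. The sequence runs 5′ to 3′ on the plus strand, chr13:119690101-119690350, and capitals mark the match.
Hmgcs1: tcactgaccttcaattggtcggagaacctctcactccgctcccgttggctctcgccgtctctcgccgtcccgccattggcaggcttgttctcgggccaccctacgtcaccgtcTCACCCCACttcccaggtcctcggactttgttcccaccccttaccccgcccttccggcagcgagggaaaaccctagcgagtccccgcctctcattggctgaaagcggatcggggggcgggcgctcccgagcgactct

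Interferon and antigen presentation genes fell in 11 of 19 (median -1.20), and all 19 had values below 0. Irf7 (ENSMUSG00000025498, chromosome 7, 141262706 to 141266481, minus strand), the transcription factor that amplifies the type I interferon response, had the smallest adjusted p of the list. Its normalised reads were 299.4 at the lowest, 630.7 at the median and 1065 at the highest in early libraries, and 0.869, 12.4 and 46.95 in late ones. No late library came near the early range, and the log2 fold change was -3.65 (SE 0.35, limma adjusted p = 2.6e-05). Irf7 was the one named gene that still passed once the mitochondrial share was in the model (-3.16, limma adjusted p = 0.0284). With the glial marker score 2 named genes passed, Mal, which is part of that score, and Irf7 (-3.86, limma adjusted p = 0.00199). Over 35 alternatives its log2 fold change ranged from -5.20 to -2.26 and its adjusted p from 1.44e-16 to 1. It passed in 34, and missed with the summed oligodendrocyte level as a covariate. It shares 45 bases with Phrf1 on the other strand, which stood at 679.8 early and 604.4 late.

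Among the effectors, Oasl2, a relative of the enzymes that sense double-stranded RNA, had a median of 437.8 early and 38.01 late (log2 fold change -3.00, limma adjusted p = 0.0044). Tap2, a chain of the peptide transporter for antigen presentation, was at 169.9 to 971.6 early and at 0 to 113.1 late, without overlap (-2.47, limma adjusted p = 0.0024). Ifit1, which binds foreign RNA caps, went from a median of 1230 to 113.3 (-2.45, limma adjusted p = 0.02), with overlapping classes. The next 3 genes were picked out after their values were seen. Ifit3 fell by 1.61 on the log2 scale, and Isg15, a ubiquitin-like protein, was at -1.08 and did not pass (limma adjusted p = 0.041 and 0.0722). B2m, the shared light chain of class I molecules, was at -0.18 (adjusted p = 0.747). Without the 60-day libraries 3 of 19 passed (median -0.92), and with quantile normalisation 6.

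The promoters of Ifit1 and Ifit3 are shown because both genes fell and each holds the letters GAAA, any 2 bases and GAAA again, the core of the interferon-stimulated response element, more than once. Searched on both strands over the 250 bases before the start, these letters were in 6 of the 17 list members with a RefSeq promoter (35.3%). They were in 2.98% of all 32851 promoters. The 2 shares are unlike measures, since a list member counted if any of its promoters matched and the 2.98% is per promoter. The other 4 genes with these letters were B2m, Bst2, Isg15 and Stat2. B2m, Isg15 and Stat2 did not pass (Stat2 at -0.85, limma adjusted p = 0.195), and Bst2 was not among the genes tested. Irf7 and Oasl2 had no match in this window, nor had H2-D1, Ifitm3, Irf9, Tap1 and Tapbp, which also fell. H2-K1, Irf1, Psmb8 and Psmb9 held no match either and did not pass. A link between these letters and the fall was not tested. Both sequences run 5′ to 3′ on the plus strand of GRCm38.p6, at chr19:34640639-34640888 and chr19:34583279-34583528, and capitals mark the matches, here in reverse complement.
Ifit1: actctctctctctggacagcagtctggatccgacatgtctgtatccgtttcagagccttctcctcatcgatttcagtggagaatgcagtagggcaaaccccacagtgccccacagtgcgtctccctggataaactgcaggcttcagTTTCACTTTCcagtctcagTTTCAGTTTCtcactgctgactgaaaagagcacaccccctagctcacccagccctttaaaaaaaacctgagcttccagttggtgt
Ifit3: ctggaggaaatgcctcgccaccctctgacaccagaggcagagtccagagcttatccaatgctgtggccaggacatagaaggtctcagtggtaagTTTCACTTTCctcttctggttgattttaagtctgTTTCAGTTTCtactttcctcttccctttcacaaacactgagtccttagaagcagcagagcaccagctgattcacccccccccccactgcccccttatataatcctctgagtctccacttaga

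Autophagy and lysosome genes fell in 13 of 25 (median -0.93). Lamp1, the abundant glycoprotein of the lysosomal membrane, stood at 45380 to 70600 early (median 55750) and 5108 to 34980 late (median 13420), without overlap (log2 fold change -2.03, SE 0.33, limma adjusted p = 0.0013). Wipi1, a factor in forming autophagosomes, fell by 1.74 on the log2 scale. Ctsa, a protective carboxypeptidase, was at -1.66 but shares 1515 bases with Pltp on the other strand, which itself went from 3972 to 519.8. Without the 60-day libraries 1 of the 25 passed (median -0.64), without 90-day replicate 9 alone 7, and once the mitochondrial share was in the model 0. Cat, the peroxisomal enzyme that breaks down hydrogen peroxide, and the extracellular Sod3 were the 2 falls among 21 antioxidant genes (-1.66 and -1.45), a share near the 6.23% of all genes tested. Neither passed without the 60-day libraries, and Sod3 lost its call in 8 of the 14 fits without 1 library. Sod1 itself was at 1611 to 3442 early and 2995 to 4244 late and did not pass (log2 fold change 0.59, limma adjusted p = 0.074). It did pass in the fit without 30-day replicate 5. Creb3 was at 6261 to 10150 early and 2747 to 7253 late and did not pass (-0.61, limma adjusted p = 0.095), and its sign turned once the mitochondrial share was in the model (0.055).

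**Figure D2:**
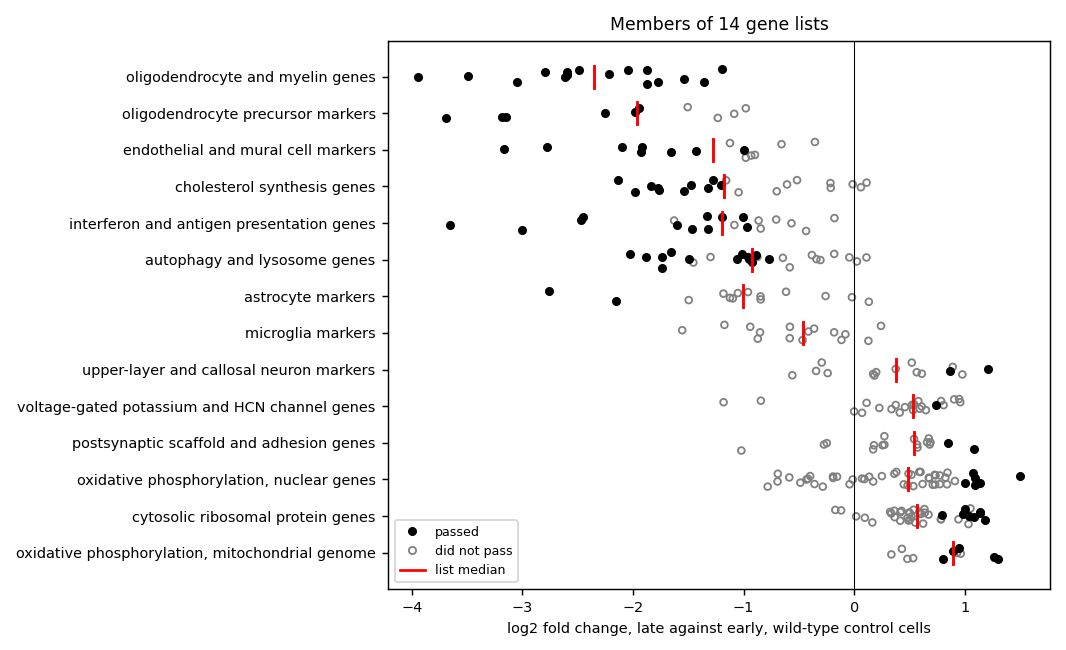
Log2 fold change (late against early, x axis) of each tested member of 14 gene lists (y axis) in wild-type control cells, with filled points for members that passed, open points for those that did not, and a red line at the list median. The median is lowest for oligodendrocyte and myelin genes (-2.35) and highest for the protein-coding genes of the mitochondrial genome (0.89).

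Among the genes that rose were those of energy metabolism and of the ribosome. Of 11 protein-coding genes of the mitochondrial genome 5 rose (median 0.89). mt-Nd6, a subunit of respiratory complex I, went from a median of 1853 to 4679 (log2 fold change 1.30, limma adjusted p = 0.0058). Nuclear genes of oxidative phosphorylation rose in 6 of 48 (median 0.49), such as Cox7c, a small subunit of cytochrome c oxidase, at 1765 to 4792 early and 3512 to 18510 late (2.83-fold, limma adjusted p = 0.02). Ribosomal protein genes rose in 8 of 40 (median 0.57), for instance Rpl23 (1.04) and Rplp1 (1.08). The classes overlapped in every member of these lists. Quantile normalisation raised the counts to 6, 17 and 15, and none of these genes passed without the 60-day libraries, where the medians were 0.73, 0.33 and 0.40. None passed once the mitochondrial share was in the model. For the mitochondrially encoded genes that share is their own sum, so this fit does not test them. The medians of the nuclear and ribosomal lists there were 0.59 and 0.53. Without 1 library, Cox7c and Rpl23 lost their calls in 2 of 14 fits, those without either 60-day library, and Rplp1 in 6. Over all genes that passed, the median exonic length of protein-coding genes was 4375 bases in the rises, 2780 in the falls and 3369 in all tested.

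In neuronal lists few genes passed, while most list medians were above 0. Upper-layer and callosal markers rose in 2 of 15 (median 0.37). The median of this list was 0.014 with the glial marker score as a covariate and -0.046 with the summed oligodendrocyte level. Rasgrf2, an exchange factor for Ras and Rac, went from a median of 4268 to 9743 (log2 fold change 1.21, limma adjusted p = 0.013), and Cux2, a homeodomain factor of upper layers, from 641.6 to 1274 (0.87, limma adjusted p = 0.042). In both the lowest late library was below the highest early one, and neither gene passed without the 60-day libraries. Rasgrf2 kept its call without any 1 library, and Cux2 lost it in 10 of 14 such fits. Voltage-gated potassium and HCN channel genes had values above 0 in 20 of 23 (median 0.53), against 9235 of all 19191 genes tested, but 1 of the 23 passed. Sodium and calcium channel genes had values above 0 in 16 of 17 (median 0.39) and none passed. With the glial marker score as a covariate these medians were 0.03 and 0.10, and with the summed oligodendrocyte level -0.08 and -0.01. Among scaffold and adhesion genes of the postsynapse Homer1 (1.08) and the neuroligin Nlgn1 (0.85) rose, 2 of 17 (list median 0.54). With the same 2 covariates that median was 0.07 and -0.02. Homer1 lost its call in 7 and Nlgn1 in 11 of the 14 fits without 1 library, and neither list of channels nor this one had a member that passed without the 60-day libraries. Nptx1, a secreted pentraxin that clusters AMPA receptors, was at 1409 to 3845 early and 4130 to 16460 late, without overlap (1.31, limma adjusted p = 0.01). Of the immediate early genes, Jun fell (-2.31) while Homer1 and Nr4a2 rose, and Fos was at -1.58 and did not pass. Jun lost its call in 10 of the 14 fits without 1 library and Nr4a2 in 1, that without 60-day replicate 2. The summed level of the immediate early genes was 45330 to 220200 in late and 86140 to 399400 in early libraries. It did not pass (exact permutation adjusted p = 0.383 over 14 library measures). The highest level, 399400, was in 60-day replicate 1, against at most 125200 in the 30-day libraries. Of the 41 lists, 12 had no member that passed, among them deep-layer, GABAergic and general glutamatergic markers, presynaptic genes and circadian clock genes.

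**Figure D3:**
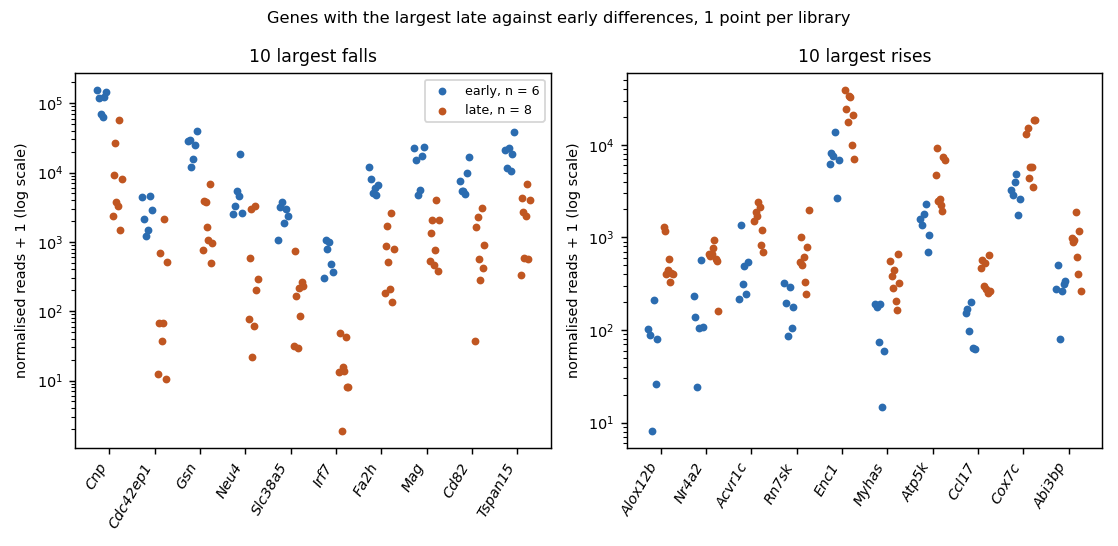
Normalised reads plus 1 on a log axis for the 10 genes with the largest falls (left) and the 10 with the largest rises (right), 1 point per library, early in blue (n = 6) and late in orange (n = 8). Irf7 shows the widest gap, with all late libraries at or below 46.95 and all early ones at or above 299.4.

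The largest rise by fold among the named genes was that of Alox12b (ENSMUSG00000032807, chromosome 11, 69156989 to 69169792, plus strand), a lipoxygenase known from the skin barrier. It was at 7.12, 83.6 and 209.3 (lowest, median, highest) in early libraries and 330.6, 428.3 and 1288 in late ones. All late libraries were above all early ones (log2 fold change 2.53, SE 0.42, limma adjusted p = 0.0016). Ccl17, a chemokine, went from 61.5 to 198.1 early to 249.8 to 650.4 late, again without overlap (1.51, limma adjusted p = 0.013). Nr4a2, an orphan nuclear receptor (1.76), Acvr1c, a receptor for activin-like ligands (1.66), and Enc1, an actin-binding protein of neurons (1.56), overlapped between the classes. The RNA Rn7sk, which restrains a transcription elongation factor, rose by 1.63. Myhas (1.53) lies antisense to Myh1 over 13320 bases, so its reads are uncertain. Atp5k, a subunit of ATP synthase (1.52), and Abi3bp, a matrix protein (1.42), complete the 10 largest rises with Cox7c. Abi3bp lost its call in 11 of the 14 fits without 1 library. The falls not yet named among the 10 largest were Cdc42ep1, an effector of the GTPase Cdc42 (-3.77), Slc38a5, an amino acid transporter (-3.68), and the tetraspanins Cd82 (-3.38) and Tspan15 (-3.38).

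The ages within each class were then examined. Among the 1196 falls, the mean was highest at 60 days in 970 genes and at 30 days in 226. Among the 236 rises, the mean was lowest at 60 days in 194 and at 30 days in 42. Since 60 days has 2 libraries, the contrast of 105 against 30 days was fitted with 1 coefficient per age. It gave 50 genes (0.261%), 49 lower (0.255%) and 1 higher (0.00521%), with 2381 at an unadjusted limma p under 0.05 (12.4%). edgeR called 0, with 1929 at an unadjusted p under 0.05. Mal (-2.25, limma adjusted p = 0.0183) and Irf7 (-3.91, limma adjusted p = 0.00143) were among the lower ones. The 1 gene higher was Bhlhe41, a transcriptional repressor of the circadian clock (1.86, limma adjusted p = 0.0359), whose mean was 314.3 at 30 days and 1257 at 105 days. Sqle, at -1.23, did not pass in this contrast (limma adjusted p = 0.134). Leaving out 1 library moved the count between 1 (without 105-day replicate 11) and 777 (without 105-day replicate 12), and over 1.5 times also for 105-day replicates 13 (8) and 9 (16), 30-day replicates 1 (7), 3 (3), 4 (7) and 5 (18), both 60-day replicates (30 each) and 90-day replicate 3 (106). Between 105 and 90 days limma and edgeR called 0 genes, with an unadjusted limma p under 0.05 in 1023 of 19191 (5.33%).

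The same contrast in control cells of Sod1G86R mice, with 8 late and 6 early libraries, gave 0 genes of 19269 by limma, with 1431 at an unadjusted p under 0.05 (7.43%). The oligodendrocyte and myelin list had a median of -1.05 there, and its share of reads was 0.984% to 4.65% early and 0.453% to 2.74% late, with overlap. Genes of cholesterol synthesis had a median of -0.13, lysosomal genes -0.04, interferon genes -0.54 and ribosomal protein genes 0.47. Sqle stood at 1448 to 5510 in early and 762.3 to 4647 in late libraries of Sod1G86R control cells, so its early range was mostly below the early range in wild type. Irf7 ranged from 4.11 to 1922 early and from 4.87 to 838.5 late. The difference of the change between genotypes was tested itself and passed in 0 of 20944 genes with limma and with edgeR, with 2891 at an unadjusted limma p under 0.05 (13.8%). For Mal the difference was 1.47 (SE 0.52, limma adjusted p = 0.287), and for Sqle 1.67 (SE 0.47, limma adjusted p = 0.239). These tests show neither a difference between the genotypes nor a like change.

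**Figure D4:**
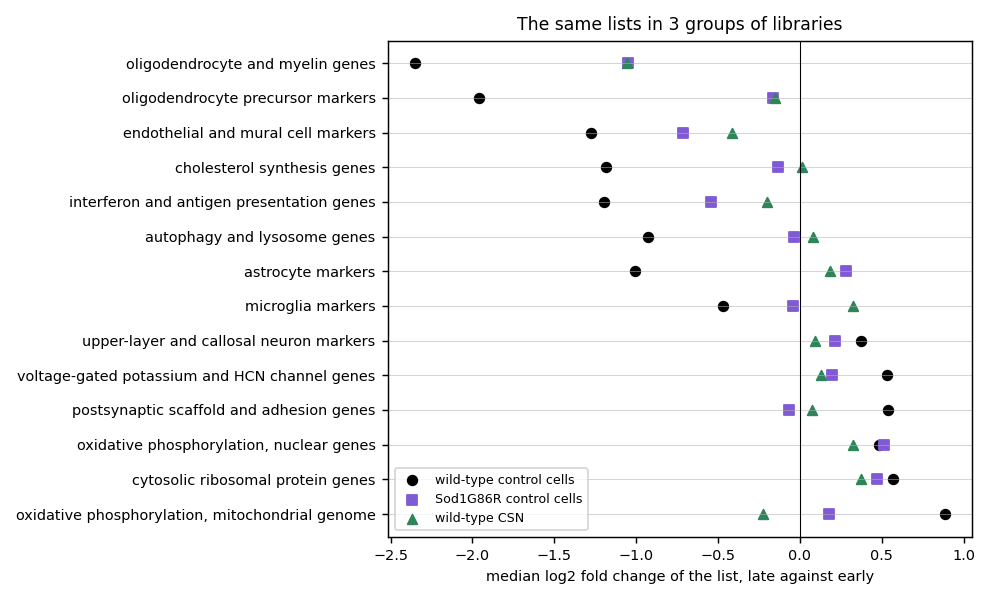
Median log2 fold change, late against early (x axis), of 14 gene lists (y axis) in wild-type control cells (circles), Sod1G86R control cells (squares) and wild-type CSN (triangles). Cholesterol synthesis genes have a median of -1.18 in wild-type control cells and of -0.13 and 0.01 in the other groups, while ribosomal protein genes are above 0 in all.

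Wild-type CSN, from 8 late and 8 early libraries of 16 animals, 14 of which also gave the control cells, gave 0 genes of 18416 late against early (limma, 1402 at an unadjusted p under 0.05, 7.61%). The change differed between CSN and control cells in 557 of 20705 genes (2.69%), 495 of them with a higher (2.39%) and 62 with a lower (0.299%) change in CSN. With the animal as a block 328 passed, with edgeR 135 and once the mitochondrial share was in the model 2. The count moved by over 1.5 times without any 1 of 13 libraries. Among control cells these were 60-day replicates 1 (186) and 2 (219), 90-day replicate 3 (321), and 105-day replicates 9 (894), 11 (351), 12 (1449) and 13 (334). Among CSN they were 60-day replicates 1 (312), 2 (350) and 3 (254), and 105-day replicates 9 (291), 12 (289) and 13 (312). Tmem163 (chromosome 1, 127486546 to 127679548, minus strand), a zinc transporter, was at 2135 to 5755 early and 192.5 to 928.1 late in control cells, without overlap, and at 2495 to 5573 early and 2522 to 4489 late in CSN. Its change differed by 2.72 on the log2 scale (limma adjusted p = 0.0001). Plekha1, which binds a phosphoinositide (1.84), and Mindy1, a deubiquitinase (2.47), also fell in control cells, and their log2 fold changes in CSN were -0.15 and -0.01. Plekha1 shares 47557 bases with Fgfr2 on the other strand, which fell from 4035 to 1567 on average in control cells.

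A higher change in CSN was called in 8 of 20 cholesterol synthesis genes, 5 of 19 interferon genes and 5 of 25 lysosomal genes, against 2.39% of all genes tested. With the mitochondrial share as covariate, 2 genes passed in all. Sqle was at 2522 to 4298 early and 2667 to 3796 late in CSN, and its change differed by 1.75 (limma adjusted p = 0.0029). Lamp1 was at 5281 to 11010 early and 5220 to 10680 late in CSN, with a difference of 2.02 (limma adjusted p = 0.0047). No oligodendrocyte and myelin gene of 16 differed in its change (median log2 fold change in CSN -1.05). In CSN that list took 0.0148% to 1.04% of the reads late and 0.186% to 0.472% early. On the other side, mt-Atp8, a subunit of ATP synthase encoded in mitochondria (-1.49), Spred2, an inhibitor of the Ras pathway (-1.13), and Ndst3, an enzyme of heparan sulfate synthesis (-1.15), rose in control cells and had log2 fold changes of -0.22, 0.10 and -0.08 in CSN.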

How the data were processed

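RNA was measured in 14 libraries of wild-type control cells, with 14 of Sod1G86R control cells and 16 of wild-type CSN for comparison. Per the labels' protocols and the series' design text, cDNA was made with SMART-Seq v4 and amplified for 11 cycles, and libraries took 12 cycles of Nextera XT and were read as pairs of 50 bases. Reads were aligned to GRCm38 with STAR 2.7.0 and counted per gene of Ensembl 87, without strand. The authors deposited 1 table of normalised signal per gene, which is whole reads divided by 1 factor per library (100% of values whole within 0.001), and edgeR and mm10 are listed, with no role given, in the submitters' processing notes.

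Values plus a pseudocount of 34.6 (1 ppm of the median column total) were put on the log2 scale. Genes at or above it in at least 3 libraries were fitted with limma 3.58.1 (trended, robust prior, R 4.3.3), late against early, with Benjamini-Hochberg adjustment over all genes and a threshold of 0.05. Fold changes on this scale understate those of low genes. Intervals between libraries are not given, and depth limits low genes. Library measures were compared by exact permutation. Differences between genotypes or cell types were interaction terms. In the cell type comparison, 14 animals gave both libraries (numbers in the labels), and residual correlations within animals ran from -0.094 to 0.224 (median 0.083, over 0.1 in 5). edgeR 4.0.16 and DESeq2 1.42.0 ran on recovered reads. The members follow the labels, but they and the 41 gene lists were chosen with earlier results of these data known, so a list's count is no independent support. Named genes were Sod1, Creb3, the 10 largest rises and falls with a level of at least 346 (10 times the pseudocount) in the higher class, up to 4 members per list with the smallest p, and the 3 smallest p in each direction of the other comparisons. Some genes that this rule names are not reported here. Coordinates are those of GENCODE M21 and promoters those of RefSeq GRCm38.p6. Of 45337 genes, 44987 had a symbol. Figures used matplotlib 3.10.9.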

Additional observations from a re-analysis of the deposited data

Results flagged for a closer look

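Some libraries stood apart from the rest of their class by Dixon's test at the 95% level, in 11 of 70 groups tested. The test was run on levels without a log, and the groups share libraries. The count therefore cannot be set against the 1 in 20 that chance gives in independent groups. Among late libraries, 105-day replicate 9 was highest for the summed astrocyte markers (305900), the summed vascular markers (24530) and Rn7sk (1958), and 105-day replicate 12 for Cnp (56270), Cdc42ep1 (2148) and Mag (4067). The 90-day replicate 6 was highest for Slc38a5 (741.5). Among early libraries, 60-day replicate 1 was highest for the summed oligodendrocyte precursor markers (90440), the summed immediate early genes (399400) and Neu4 (18360), and 30-day replicate 3 for Acvr1c (1348).

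The late against early change differed between CSN and control cells of wild type in 557 genes by the test of the difference itself (limma). The difference, CSN minus control cells on the log2 scale, was 2.72 for Tmem163, 1.84 for Plekha1 and 2.47 for Mindy1, and -1.49 for mt-Atp8, -1.13 for Spred2 and -1.15 for Ndst3.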

How the results depend on the processing

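The share of tested genes that passed, 7.46% (1432 genes), became 0.984% with no filter on low values, which raises the number of genes tested, 4% with edgeR, 12.9% with DESeq2 and 11.8% with 1 coefficient per age. With covariates it was 1.08% (detected genes), 0.0313% (glial marker score), 3.63% (library number), 0.0156% (mitochondrial share), 0.693% (receptor gene share) and 0% (summed oligodendrocyte level). The receptor genes meant here are those of smell, vomeronasal and taste receptors. Their share of reads was 0.0110% to 0.0888% late and 0.00404% to 0.0531% early. Detected genes numbered 30280 to 41120 late and 25470 to 38460 early. It was 1.04% without the 60-day libraries, 1.64% without the 90-day libraries and 0.715% without the 60-day libraries and 90-day replicate 9. Leaving out 1 library gave 2.77% to 12.6%. The summed oligodendrocyte covariate and the last left-out set were chosen after seeing the data. With the other 8 alternatives the count stayed within 1.5 times. Among these, a stricter filter on low values (at least 173 in at least 6 libraries) left 12415 genes tested. Of these 13.3% passed (1646 genes). The 0.261% of 105 against 30 days became 0.156% and 0.417% with a pseudocount 0.25 and 4 times as large, 0.00224% with no filter, 0% with edgeR and 0% with the mitochondrial share (0.00525% to 4.07% without 1 library). The 2.69% of the cell type difference became 4.09% with the larger pseudocount, 0.305% with no filter, 0.652% with edgeR, 0.00966% with the mitochondrial share and 1.59% with the replicate block (0.902% to 7.02% without 1 library). The counts of 0 for 105 against 90 days and for the genotype difference stayed at 0 in each alternative run for them, and none was run for Sod1G86R control cells or CSN alone. No paired analysis was possible for late against early because the labels give no animal at more than 1 age.

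Of the 86 named genes that passed, 86 passed with TMM, 78 with quantile normalisation, 63 with edgeR, 28 without the 60-day libraries, 2 with the glial score, 1 with the mitochondrial share and 0 with the summed oligodendrocyte level. Signs turned for Acsbg1 with the glial score (0.25), of which Acsbg1 is a part, and for Creb3 with the mitochondrial share (0.055). They also turned in 30 genes with the summed oligodendrocyte level, which does not overlap between the classes. The values were Enc1 -0.61, Abi3bp -0.22, Cnp 0.32, Cdc42ep1 1.64, Neu4 0.60, Mag 0.12, Cd82 0.49, Tspan15 0.78, Creb3 0.049, Rasgrf2 -0.16, Cux2 -0.046, Olig1 0.84, Gpr17 0.79, Bcas1 0.78, Acsbg1 1.92, Sparc 0.45, Hapln2 0.23, Bcan 0.99, Homer1 -0.092, Jun 1.28, Hsp90aa1 -0.023, Gria3 -0.49, Sema6a 0.65, Sema4d 0.82, Tubb4a 0.11, Ctsa 0.18, Wipi1 0.56, Rpl23 -0.054, Cat 0.47 and Sod3 0.26. Late minus early summed microglia markers turned to 34450 without the 60-day libraries. Without 1 library, the late minus early difference ran from -2.352 to 2.191 M in recovered reads, from -2778 to 801.0 in summed GABAergic markers and from -1047 to 364.3 in summed deep-layer markers, none of which had passed. The causes were not tested.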
